A study of Caenorhabditis elegans with 2 samples.

Results

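The microRNA genes of Caenorhabditis elegans were examined for binding of NHR-80, an HNF4-like nuclear receptor known for its part in fatty acid desaturation. They were all nuclear genes annotated as microRNA genes on the genome build WBcel235 (ce11), which are 261 of 46890 nuclear genes of every kind. For each gene the summits of NHR-80 peaks were read from 1000 bp upstream of the 5′ end to the 3′ end. The animals were whole hermaphrodite young adults of strain OP460, genotype unc-119(tm4063) III; wgIs460, collected 64 hours after synchronisation at the starved L1 stage. The strain is a single transgenic line in which wgIs460 supplies nhr-80 with a GFP-FLAG tag at its C terminus, on an unc-119 mutant background that both samples share. The 2 samples were biological replicates of 1 group, so no treatment or genotype was compared. By the sample description the fusion protein was recovered with an antibody to GFP, while another label gives nhr-80 as the antibody. Chromatin came from whole animals, so a peak in few cells and a weak peak in many cannot be told apart.

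A microRNA is cut from a hairpin in a longer primary transcript, and its seed, bases 2 to 8 of the mature strand, pairs with target messenger RNAs and represses them. Genes with the same seed form families whose members can act redundantly. In worms, microRNAs are known for the timing of larval development, for embryonic development and for ageing and stress responses. Most annotated microRNA genes span only the hairpin, and the primary transcript can begin well upstream of it, so distances here are to the annotated 5′ end and not to a measured start of transcription. Of the 261 genes, 7 had an annotated span other than the hairpin. The longest was let-7 with 1732 bp, and the median length was 95 bp.

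The families that the results turn on are shown first by mature strands of their members, from the RefSeq annotation of WBcel235, with the seed in capitals. The mir-51 family and the mir-63 family are shown because every member had a peak, and the mir-238 family for the same reason.
mir-51: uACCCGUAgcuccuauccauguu
mir-52: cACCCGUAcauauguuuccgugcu
mir-53: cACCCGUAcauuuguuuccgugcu
mir-54: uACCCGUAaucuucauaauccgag
mir-55: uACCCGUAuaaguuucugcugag
mir-56: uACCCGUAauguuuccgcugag
mir-63: uAUGACACugaagcgaguuggaaa
mir-64: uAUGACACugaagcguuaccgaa
mir-66: cAUGACACugauuagggauguga
mir-229: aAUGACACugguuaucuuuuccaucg
mir-238: uUUGUACUccgaugccauucaga
mir-239.1: uUUGUACUacacauagguacugg
mir-239.2: uUUGUACUacacaaaaguacug

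The let-7 family and the bantam-like family are shown because some members had a peak and others, with the same seed, did not. The seed of mir-58.1 differs from that of the other bantam-like strands shown. The strands of mir-60 and mir-77 belong to the genes ranked after mir-80 by signal, and mir-35 stands for the largest family without a peak.
let-7: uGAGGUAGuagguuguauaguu
mir-48: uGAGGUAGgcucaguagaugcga
mir-241: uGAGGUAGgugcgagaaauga
mir-84: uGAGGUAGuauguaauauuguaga
mir-80: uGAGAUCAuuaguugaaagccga
mir-82: uGAGAUCAucgugaaagccagu
mir-81: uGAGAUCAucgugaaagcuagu
mir-58.1: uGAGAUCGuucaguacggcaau
mir-60: uAUUAUGCacauuuucuaguuca
mir-77: uUCAUCAGgccauagcugucca
mir-35: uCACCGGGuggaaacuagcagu

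NHR-80 peaks lay at 54 of the microRNA genes, a share close to that over the genome once the piRNA genes are set aside. These 54 of 261 genes (20.7%) had a summit in the authors' final list, cut off by the irreproducible discovery rate (IDR), which rates how well peaks repeat between replicates, and called thresholded here. Over all nuclear genes the share was 14.5%. That figure is held down by 15363 piRNA genes, of which 2.74% had a summit, and without them it was 20.3%. Protein-coding genes had a summit in 23.4%, but their windows are longer, with a median gene length of 2027 bp. With a window of one length for every gene, from 1000 bp upstream to 100 bp past the 5′ end, the shares were 20.3% of microRNA genes, 18.2% of protein-coding genes and 16.6% of all genes but piRNA genes. Over all nuclear genes this window gave 12.1%. The order against protein-coding genes depended on how shared summits were counted: when each summit counted only for the nearest 5′ end of any gene, 25 microRNA genes had one (9.58%), against 15.7% of protein-coding genes and 9.16% of all nuclear genes. The last share includes the piRNA genes and was not worked out without them. Other RNA genes differed widely. In the window to the 3′ end, tRNA genes had 41.7%, snoRNA genes 39.3%, lincRNA genes 27.8%, snRNA genes 19.4%, other ncRNA genes 13.5% and pseudogenes 5.78%. In the window of one length the values were 43.8% for tRNA genes, 39.3% for snoRNA genes, 20.6% for lincRNA genes, 17.8% for snRNA genes, 12.4% for other ncRNA genes, 5.08% for pseudogenes and 2.86% for piRNA genes. No test was made of these differences, and a share this close to the genome's is not a result about microRNA genes.

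**Figure D1:**
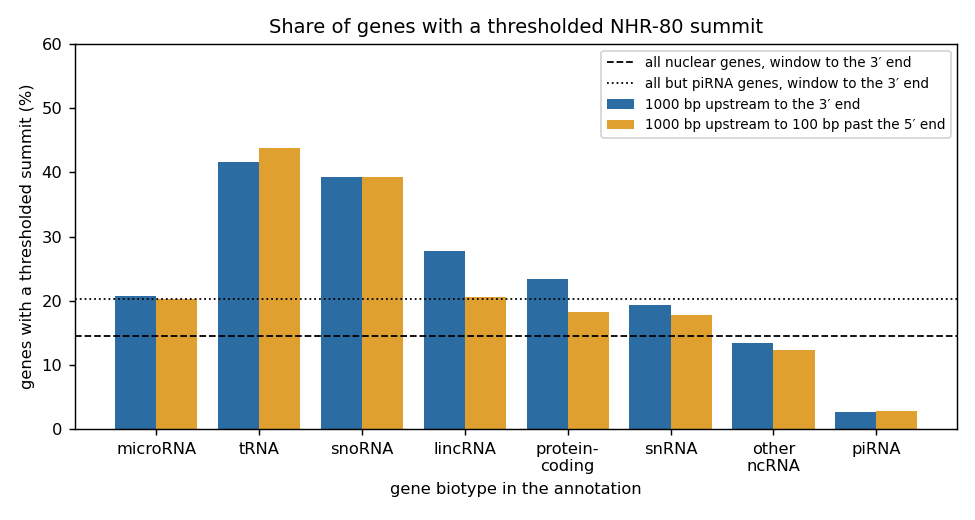
Bars give the percentage of genes of each annotated kind with a thresholded NHR-80 summit, for a window to the gene's 3′ end and for a window of one length. Both lines belong to the window to the 3′ end, where microRNA genes stand at 20.7%, close to the dotted line for all genes but piRNA genes (20.3%) and above the dashed line for all nuclear genes (14.5%). In the window of one length microRNA genes stand at 20.3%, and the shares without lines are 16.6% of all genes but piRNA genes and 12.1% of all nuclear genes.

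Signal at the microRNA sites had a higher median than over the genome. The strongest summit of each of the 54 genes had signal values, on the peak caller's scale, from 101 to 780 with a median of 288. The median was 205 for the strongest summit of each of the 6807 genes with one, and 211 for protein-coding genes. A summit above the median of the thresholded list, 195, was found at 41 microRNA genes (15.7%), against 7.83% of all nuclear genes, 10.9% without piRNA genes and 13.0% of protein-coding genes. Several of these genes share one strong summit: the 54 genes had 48 different strongest summits, whose median was 265. Over every different summit at a microRNA gene the median was 246, against 194 for all nuclear thresholded summits, and neither difference was tested. The 54 genes held 54 different summits in all, of which 5 were each counted for several microRNA genes, and 10 genes had more than 1.

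Both replicates listed nearly all of these sites. In the unthresholded lists, 111 microRNA genes had a summit in replicate 1 (42.5%, against 31.9% of all nuclear genes) and 119 in replicate 2 (45.6%, against 32.4%). In this paragraph the shares of all nuclear genes include the piRNA genes. A summit in the same window was present in both replicates' own unthresholded lists at 53 of the 54 genes. At the exception, mir-353, which was named after its values were seen and is an intronic gene of rpl-24.1, the thresholded summit lay at -994 bp, and an overlapping peak of replicate 1 ranked 3435. Among each replicate's 7038 strongest peaks, as many as the thresholded list holds, 50 microRNA genes had a summit in replicate 1 (19.2%) and 54 in replicate 2 (20.7%), against 14.4% of all nuclear genes in each. Protein-coding genes had 22.9% in replicate 1 and 23.1% in replicate 2. In both replicates such a summit was found at 48 microRNA genes, and all 48 were in the thresholded list. Across the 48 different strongest summits, the ranks in the replicates had a Spearman rho of 0.94. The threshold itself was derived from these 2 libraries. The ranks were within 1.5 times of each other at 40 of the 53 genes.

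The largest absolute differences in rank were at mir-800, mir-241, mir-52, mir-356.2 and mir-8194. As a ratio, mir-77 (183 in replicate 1 and 374 in replicate 2) differed more than mir-241, and mir-8194 lay within 1.5 times. The strongest summit in the window of mir-800 ranked 14235 in replicate 1 and 5900 in replicate 2. These were at different positions, chrX:381378 in replicate 1 and chrX:381209 in replicate 2, with the thresholded summit at chrX:381214. At mir-241 the order was the other way, with rank 3886 in replicate 1 and 7704 in replicate 2. At mir-52 it was 1356 in replicate 1 and 3608 in replicate 2. The sites at mir-800 and mir-241 therefore each fell outside the 7038 strongest peaks of one replicate, while mir-52 was well inside both. The ranks of mir-356.2 were 4698 and 2986, and those of mir-8194 were 7653 and 6290, in replicates 1 and 2. Thus mir-8194 also fell outside the 7038 strongest peaks of replicate 1, as did mir-271 (rank 7105) and mir-4932 (rank 7053).

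**Figure D2:**
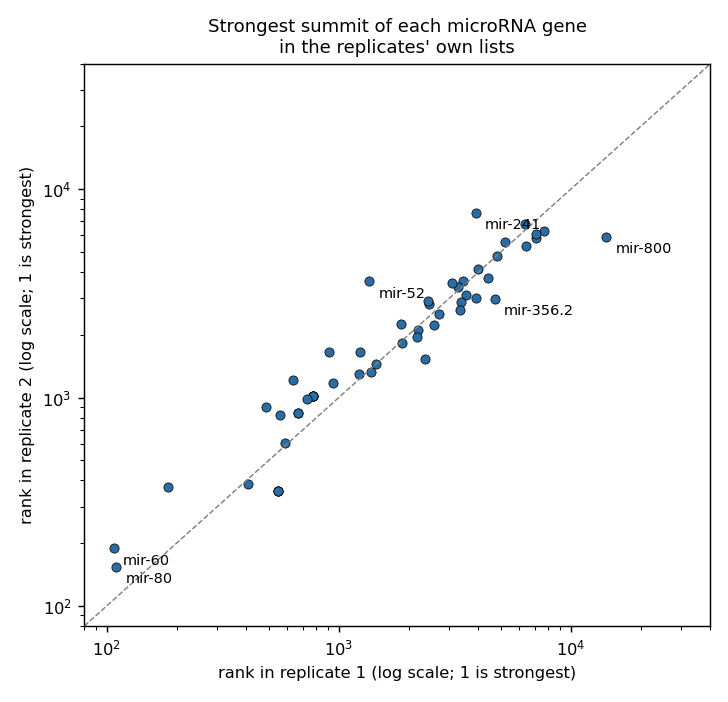
Each point is one of the 53 microRNA genes with a thresholded summit and a summit in both replicates, placed by the rank of its strongest summit in replicate 1 (horizontal) and replicate 2 (vertical), both on log scales, with the dashed line marking equal ranks. The points lie along the line (Spearman rho 0.96 across these genes), and the labels mark genes named in the text, among them mir-800, mir-241 and mir-52.

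Summits gathered in the 500 bp before the annotated 5′ end. Of the 54 strongest summits, 22 lay from -250 to -1 bp, 16 from -500 to -251 bp, 5 from -750 to -501 bp and 9 from -1000 to -751 bp. Another 2 lay at or past the 5′ end, at mir-5549 and let-7. The window ended at the 3′ end and the median gene was 95 bp long, so few summits past the 5′ end could be counted. The median position was -299 bp. Counting every summit once for each gene, there were 8.81 thresholded summits per 100 microRNA genes in the 250 bp before the 5′ end and 8.05 in the next 250 bp, against 9.13 and 4.73 per 100 protein-coding genes and 0.521 and 0.736 per 100 piRNA genes. In the 250 bp past the 5′ end, with no limit at the 3′ end, there were 2.30 per 100 microRNA genes and 1.89 per 100 protein-coding genes. MicroRNA clusters enter these rates several times, since each gene of a cluster counts the same summit. Peak intervals are wider than the hairpins. At 23 of the 54 genes the interval reached the hairpin, but only at mir-5549 did the summit lie inside it.

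**Figure D3:**
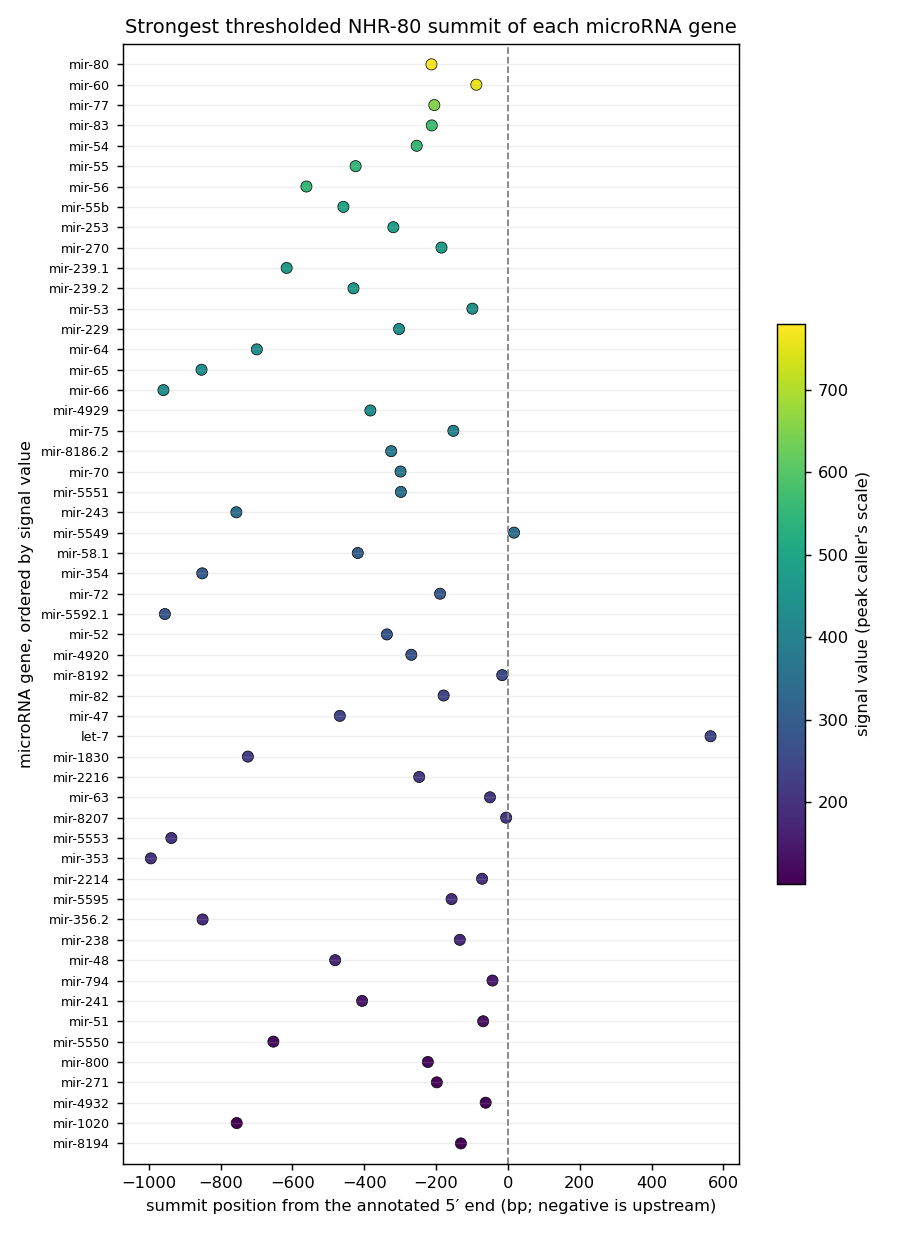
Each row is one of the 54 microRNA genes with a thresholded summit, ordered by signal value from mir-80 (780) at the top, and the point gives the position of its strongest summit from the annotated 5′ end in bp, coloured by signal value. Most points lie within 500 bp upstream of the dashed line at the 5′ end, and let-7, whose annotated span is longer than its hairpin, lies at 564 bp.

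**Figure D4:**
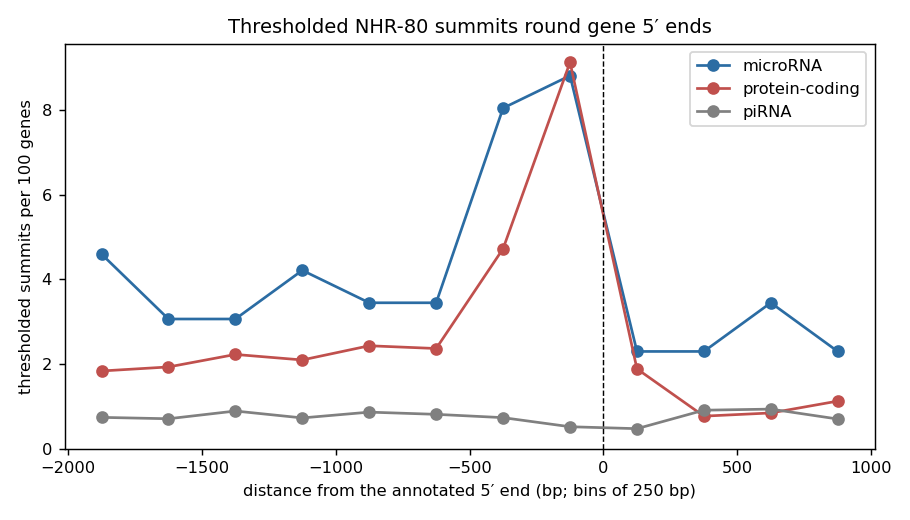
Lines give the number of thresholded summits per 100 genes in bins of 250 bp around the annotated 5′ end, for microRNA, protein-coding and piRNA genes. The microRNA line reaches 8.81 in the bin before the 5′ end and 8.05 in the bin before that, and the piRNA line stays under 1 throughout.

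Some of the sites also lay in promoters of protein-coding genes. Of the 54 different summits, 18 (33.3%) lay in the promoter of a protein-coding gene, taken as 1000 bp upstream to 200 bp downstream of its 5′ end, against 47.7% of all 7020 nuclear thresholded summits. Thus mir-5551 had its summit in the promoter of nhr-97, a nuclear hormone receptor gene, and mir-354 lay in an exon of rps-20, a ribosomal protein gene, with the summit in the promoters of rps-20 and ekl-4. The summit at mir-5549 lay in the promoters of eef-1A.1, a translation elongation factor gene, and rfc-4. ChIP-seq does not carry strand, so these peaks cannot be assigned to one gene of a pair. Without summits in coding promoters, 36 microRNA genes (13.8%) had a peak, against 5.76% of all nuclear genes, piRNA genes included, and 6.44% of protein-coding genes, whose own promoters this removes.

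By position in other genes, 19 of 68 microRNA genes in introns of a protein-coding gene on the same strand had a summit (27.9%). In introns on the opposite strand 6 of 30 had one, as did 27 of 152 outside protein-coding genes (17.8%). Of 11 genes in exons, 2 of the 8 on the same strand and 0 of the 3 on the opposite strand had one. Over all microRNA genes the share was 20.7%. Over all nuclear genes it was 14.5%, or 20.3% without piRNA genes. Clusters with shared summits enter these counts several times. They are mir-229, mir-64, mir-65 and mir-66 in same-strand introns, and mir-54, mir-55 and mir-56 in opposite-strand introns. By chromosome the share was highest on III, with 10 of 27 microRNA genes (37.0%), against 24.0% of all genes there. The 10 include mir-229, mir-64, mir-65 and mir-66, which counted the same summits and are not separate sites. On IV, where most piRNA genes lie, it was 22.0% of microRNA genes, against 6.59% of all genes, and on V 17.9%, against 16.7%. On the other chromosomes the share of microRNA genes was below that of all genes. It was 12.1% on I, against 21.0%, and 18.4% on II, against 19.6%. On X, which holds the most microRNA genes, 15 of 74 had a summit (20.3%), against 22.6% of all genes. None of these differences was tested.

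The mir-80 gene carried the strongest site. It is one of the bantam-like microRNAs and is known for its part in the response to dietary restriction. The peak (chrIII:8865230-8865923) had its summit 213 bp upstream of the hairpin (chrIII:8865270-8865367, minus strand), in sequence outside protein-coding genes and their promoters, with a signal value of 780. It was rank 118 of the thresholded list, with values of 434 in replicate 1 (rank 110) and 345 in replicate 2 (rank 154), each on its own list's scale. Next came mir-60, a gene expressed in the intestine, with a summit 88 bp upstream of the hairpin (chrII:6328702-6328799, minus strand) and a value of 757. Its ranks were 107 in replicate 1 and 189 in replicate 2, and a second, weak summit in the same interval had 98.1. Both genes were thus among the 200 strongest sites of each replicate.

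The sequence around these summits is shown to let the sites be compared, as 101 bases of WBcel235 centred on the summit, on the plus strand. Capitals mark TGATAA in either orientation, the core recognised by GATA factors such as the intestinal regulator ELT-2.
mir-80 (chrIII:8865530-8865630): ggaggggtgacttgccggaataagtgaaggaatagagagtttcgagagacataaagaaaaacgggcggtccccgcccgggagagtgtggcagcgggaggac
mir-60 (chrII:6328837-6328937): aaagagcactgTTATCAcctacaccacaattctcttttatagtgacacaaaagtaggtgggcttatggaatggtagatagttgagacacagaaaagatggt
mir-77 (chrII:12519013-12519113): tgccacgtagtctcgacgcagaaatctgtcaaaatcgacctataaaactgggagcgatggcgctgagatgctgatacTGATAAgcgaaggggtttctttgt
mir-243 (chrIV:4449973-4450073): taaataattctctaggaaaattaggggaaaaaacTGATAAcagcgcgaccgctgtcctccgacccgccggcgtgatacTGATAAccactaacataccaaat

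TGATAA was present at a smaller share of these sites than of the whole list. Within 50 bp of the summit it was present at 11 of the 48 different strongest summits (22.9%), against 2659 of the 7020 nuclear thresholded summits (37.9%), and this difference was not tested. The strongest site, at mir-80, had none, whereas mir-60, mir-77, mir-270 and mir-70 had 1 each and mir-243 had 2. AGGTCA, a half-site bound by many nuclear receptors, was at 0 of the 48 summits against 3.33% of all, and CACGTG, the E-box, at 2 of 48 (4.17%) against 4.25%. All 3 were searched on both strands, and none of them contains another. A match is not shown to be bound, and the lack of a match says only that these letters are not in the window.

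After these came mir-77 and mir-83, both outside protein-coding genes. The summit of mir-77 (chrII:12519268-12519367, plus strand) had a value of 653 at -205 bp, in the promoters of srh-70 and ceh-99, with ranks of 183 in replicate 1 and 374 in replicate 2. That of mir-83, the worm relative of the miR-29 family (chrIV:7841631-7841728, plus strand), had 569 at -212 bp, with ranks of 405 and 386. Other strong sites were at mir-253 (485), mir-270 (482), mir-4929 (433) and mir-75 (402), with ranks from 488 to 945 in replicate 1 and from 824 to 1210 in replicate 2. Further down were mir-8186.2 (380), mir-70 (369), mir-5551 (357), mir-243 (348), mir-5549 (344) and mir-354 (295). The summits at mir-253, mir-270, mir-8186.2 and mir-70 lay in promoters of F44E7.5, T26C12.1, gmeb-1 and pmp-5, in that order. Like those at mir-77, mir-5551, mir-5549 and mir-354, they cannot be assigned to the microRNA gene alone. Every microRNA gene in this paragraph was within the strongest 2349 peaks of both replicates.

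The whole mir-51 family had NHR-80 peaks. These microRNAs share the seed ACCCGUA with the miR-99 and miR-100 family of other animals, and are known to be needed together for embryonic development and pharynx attachment. All 6 genes had a thresholded summit, at 4 separate sites on chromosomes IV and X. With 500 bp upstream in place of 1000 bp, mir-56 had none. The cluster mir-54, mir-55 and mir-56 (chrX:13144691-13145094 in all, minus strand) had its common summit at -254 bp from mir-54, -424 bp from mir-55 and -561 bp from mir-56, with a value of 554. The cluster lies in an intron of F09A5.3 on the opposite strand, and its summit had 278 in replicate 1 (rank 547) and 275 in replicate 2 (rank 357). On the other side of the cluster, the antisense hairpin gene mir-55b had 2 other summits in its window, the stronger with 503 (ranks 589 and 606 in replicates 1 and 2). Their interval (chrX:13143941-13144775) overlapped the mir-56 hairpin. They counted for mir-55b alone because the window follows the annotated strand, which ChIP-seq does not carry. The site at mir-54 is shown because it held one of the E-boxes among these summits, in capitals.
mir-54 to mir-56 (chrX:13145298-13145398): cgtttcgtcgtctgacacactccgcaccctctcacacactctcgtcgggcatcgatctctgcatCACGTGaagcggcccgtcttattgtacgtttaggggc

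The other genes of the family had a site each. The summit of mir-53 lay 99 bp upstream with a value of 443, and had 251 in replicate 1 (rank 728) and 192 in replicate 2 (rank 982). That of mir-51, its neighbour on IV (chrIV:11026013-11026112, minus strand), lay 69 bp upstream and had only 133, with 74.6 in replicate 1 (rank 5195) and 59.1 in replicate 2 (rank 5594). With 2000 bp upstream, mir-51 had a strongest value of 443, which is that of the summit at mir-53. At mir-52 (chrIV:14034008-14034107, plus strand) the value was 282 at -337 bp, with 192 in replicate 1 and 89.3 in replicate 2. The 4 sites thus spanned ranks 428 to 5249 of the thresholded list, at genes whose mature strands share the seed.

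The mir-63 family, with the seed AUGACAC, had a thresholded summit at all 5 genes but at only 2 places. The cluster mir-229, mir-64, mir-65 and mir-66 lies in an intron of gcn-1 on the same strand (chrIII:2172452-2173206 in all). Its genes counted the same 2 summits, with values of 437 and 119, the stronger at -303 bp from mir-229 and -959 bp from mir-66. The ranks of the stronger were 772 in replicate 1 and 1018 in replicate 2. With 500 bp upstream, mir-65 and mir-66 had no summit and mir-64 had only the one of 119. The lone gene mir-63 on X had a summit 50 bp upstream with 210, at ranks 3089 and 3548. The mir-238 family, with the seed UUGUACU, also had a summit at each of its 3 genes, which are known from studies of ageing in worms. The paired genes mir-239.1 and mir-239.2 point away from each other on X, and both counted 2 summits in the sequence between them, with values of 467 and 323. The stronger ranked 667 in replicate 1 and 847 in replicate 2. At mir-238, which lies beside mir-80 on III, the summit 134 bp upstream had 177 (ranks 4419 and 3728). With 2000 bp upstream, the strongest summit of mir-238 had 482.

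Most genes that share a seed had no peak. Of 109 genes that share a seed with another gene, 26 had a thresholded summit (23.9%), against 28 of 152 without a shared seed (18.4%), which was not tested. Seeds of both annotated arms of a hairpin were counted, so a pair of genes can share more than one. There were 46 shared seeds, of which 16 had at least 1 gene with a summit and the 3 above had one at every gene. The pair mir-8186.1 and mir-8186.2 and the pair mir-5592.1 and mir-5592.2 are overlapping hairpins on opposite strands. Only mir-8186.2 and mir-5592.1 had a thresholded summit, because the window follows the annotated strand. The genes of a cluster share both the seed and the summit, so they are not separate cases.

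The bantam-like family was split. These microRNAs are abundant and are known to restrain TGF-beta signalling in worms. Besides mir-80 (780), the intronic genes mir-58.1, in Y67D8A.2, and mir-82, in gid-2, had thresholded summits with values of 304 (at -418 bp) and 246 (at -179 bp). The ranks of mir-58.1 were 1870 and 1822, and those of mir-82 were 2429 and 2905, in replicates 1 and 2. The gene mir-81, which lies in an intron of the same gid-2 gene but on the other strand, had only an unthresholded pooled summit of 19.0, and mir-58.2 one of 12.4. The mature strands of mir-81 and mir-82 printed above are nearly identical, while the values at the genes were 19.0 and 246.

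Of 6 heterochronic microRNA genes, which time larval development, 3 had peaks. Over all microRNA genes the share was 20.7%, and over all nuclear genes 14.5%. The group is small and its count was not tested. The primary transcript of let-7 (chrX:14743590-14745321, minus strand) held a summit 564 bp past its 5′ end and 486 bp upstream of the hairpin, in the promoter of the overlapping gene C05G5.7. Its value was 245, with 137 in replicate 1 (rank 2456) and 109 in replicate 2 (rank 2824). A far stronger thresholded summit, with 1013, lay at -1851 bp from the primary transcript's 5′ end, outside the window. The let-7 relatives mir-48 and mir-241, neighbours on V, had 174 at -481 bp (ranks 3965 and 4149) and 139 at -406 bp (ranks 3886 and 7704). The best rank in the thresholded list among these genes was thus 2587. Their relative mir-84 had no thresholded summit, and its pooled value was 28.8. For lin-4, the founding member of the microRNA class, the pooled summit in the window had 71.5 and ranked 9459 in replicate 1 and 8067 in replicate 2. Its nearest thresholded summit upstream lay at -1755 bp with 120. The lin-4 relative mir-237 had no summit of any list in its window.

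Genes known from ageing and stress had a thresholded summit at 3 of 6, namely mir-238, mir-239.1 and mir-239.2. Of these, mir-239.1 and mir-239.2 counted the same summits. Over all microRNA genes the share was 20.7%, and over all nuclear genes 14.5%. This small group was not tested either. The gene mir-71, which is known to extend lifespan in animals without a germline, had its strongest neighbouring site beyond the window. In its window the pooled summit had 80.6, below the lowest thresholded value of 93.0. A thresholded summit with a value of 857, higher than that of any site within a microRNA window, lay at -1472 bp. Both mir-71 (chrI:9379927-9380020, minus strand) and mir-2 are in an intron of ppfr-1 on the same strand, and the same summit was at -8627 bp from mir-2. For mir-34, known for its response to DNA damage, the pooled value in the window was 50.1 and the nearest thresholded summit upstream, at -1190 bp, had 98.1. At mir-246 there was no summit of any list in the window.

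Several groups lacked thresholded peaks. The mir-35 family, known for its role in embryos, had 0 of 8. Its cluster of 7, in an intron of Y62F5A.9 on the opposite strand, counted 2 unthresholded pooled summits, the stronger with 16.0, and mir-42 had none. The mir-2 family had 0 of 4, with a pooled summit only at mir-250 (52.5). None of 7 genes known from muscle, neurons or glia had a pooled summit: mir-1 of muscle, lsy-6, mir-124, mir-790, mir-791 and mir-793 of neurons, and mir-228 of glia. The only listing among them was a weak summit of replicate 1 at mir-1 (rank 22001). Over all microRNA genes 20.7% had a thresholded summit, and over all nuclear genes 14.5%. The groups were small, several of their genes lie in clusters, and no test was made of their counts. Counts of 0 among so few genes therefore show no trait of these groups. For the other intestinal gene considered, mir-786, no list had a summit in the window, while mir-60 came next after mir-80 in signal. Among protein-coding markers read in the same kind of window, 4 of 5 intestinal genes (elt-2, ifb-2, pept-1 and vha-6) had a thresholded summit. The counts were 0 of 3 for muscle, 0 of 3 for germline, 1 of 3 for neurons (snb-1) and 1 of 3 for hypodermis (elt-3). Over all protein-coding genes the share was 23.4%, so counts of 0 or 1 among 3 genes show no difference between tissues. None of these counts was tested.

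**Figure D5:**
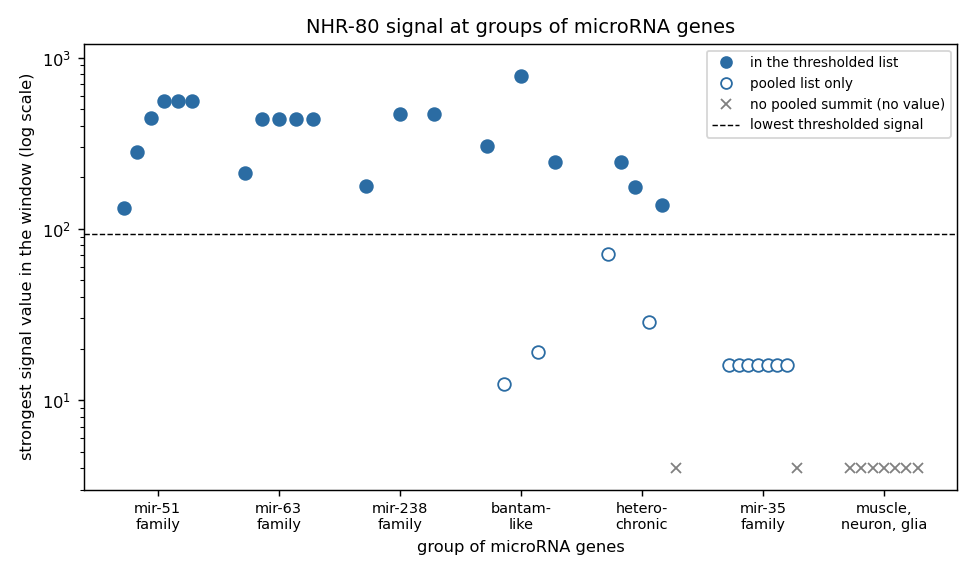
Points give the strongest signal value in the window of each gene on a log axis, filled for thresholded summits and open for genes with an unthresholded pooled summit only, and crosses at the foot mark genes with no pooled summit, which have no value. The mir-51, mir-63 and mir-238 families lie above the dashed line at the lowest thresholded value (93.0), the mir-35 family lies below it at 16.0 or has no summit, and the muscle, neuron and glia genes have none.

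Below the threshold, 64 further microRNA genes had a summit of the unthresholded pooled list, which makes 118 in all (45.2%), against 30.1% of all nuclear genes, 40.7% without piRNA genes and 45.9% of protein-coding genes. At 48 of the 64 both replicates had a summit in the window. The strongest were at mir-61 (92.4), mir-392 (89.2), mir-71 (80.6), mir-236 (79.0) and mir-4936 (76.8), all under the lowest thresholded value. At mir-61 the replicates differed, with rank 6840 in replicate 1 and 10820 in replicate 2. At mir-392 they differed the other way, with rank 7905 in replicate 1 and 4807 in replicate 2. At mir-392 a thresholded summit with 132 lay at -1010 bp, just beyond the window, and at mir-236 one with 383 lay at -1200 bp. No list had a summit in the window of 129 microRNA genes (49.4%). Of the 207 genes without a thresholded summit in the window, 17 had one beyond the window but within 2000 bp upstream. For 156 of them the nearest upstream was over 5000 bp away. The matching shares over all nuclear genes, with no summit in any list or at these distances, were not worked out. These counts therefore do not set microRNA genes apart.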

How the data were processed

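ChIP-seq of GFP-tagged NHR-80 in 2 biological replicates was analysed from the deposited peak lists on build ce11. Per the labels and the notes deposited with the samples, peaks were called by the authors against a control for each replicate and for both pooled, and the IDR-thresholded list was derived from these. The sources used here do not name the caller, aligner or IDR limit. The lists hold 30000 peaks for replicate 1, 29712 for replicate 2, 30000 pooled and 7038 thresholded, of which 7020 are nuclear. Each deposited signal value belongs to 1 peak, comes from the authors' caller and was compared only within a list, with ranks counted from the strongest peak. Peak lists carry no read counts, so the depth is unknown.

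Genes are those of Ensembl release 115 on WBcel235, the assembly of ce11. Of the 261 genes, 257 were named by a microRNA symbol (mir, let, lin or lsy) read from RefSeq by gene ID. The others kept their name in the Ensembl annotation. Where windows overlapped, a summit was counted for each gene. Since there is 1 group without read counts, no test was made, and shares stand beside the genome's. The window search found all 200 planted genes in a check on simulated summits, and bedtools 2.31.1 gave the same counts for all 46890 genes. Analyses ran under Python 3.11.15 (pandas 2.3.3, numpy 2.4.6, matplotlib 3.10.9, scipy 1.17.1).

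Genes named are the 20 strongest sites that are strong in both replicates, the 5 strongest below the threshold, the 5 with the largest absolute rank difference, and fixed lists by known role. Others named were chosen after their values were seen. The genes and lists were chosen with earlier results of these data known. Sequences of chromosome I are not shown, and not every mature strand is reported here. Alternatives covered the window, the overlap, the threshold, each replicate alone, shared promoters and the motif distance.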

Additional observations from a re-analysis of the deposited data

How the results depend on the processing

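The count of 54 microRNA genes with a thresholded summit stayed between 36 and 71 under other windows, overlap in place of summits, each replicate alone (50 and 54), signal above the median and removal of coding promoters. It was 25 (9.58%, against 9.16% of all nuclear genes, piRNA genes included, and 15.7% of protein-coding genes) when each summit counted only for the nearest 5′ end of any gene, and 10 among the strongest 10% of peaks. The share over all nuclear genes, 14.5%, was 11.9% with 500 bp upstream, 18.3% with 2000 bp, 18.9% with 1000 bp past the 3′ end added, 16.5% by interval overlap, 7.83% above the median signal, 1.70% among the strongest 10% and 12.1% in a window of one length. With a limit chosen after seeing the data, the lowest signal of the authors' ce10 thresholded list, 67 microRNA genes and 18.2% of all genes had a summit. The pooled count, 118, was 97 with 500 bp upstream and 132 with 2000 bp. TGATAA was within 25 bp of the strongest summit at 7 of the 54 genes and within 100 bp at 19, against 11 of the 54 within 50 bp. A wider distance can only add matches. The share over all thresholded summits was not worked out at 25 or 100 bp. These counts therefore do not show whether the lower share at 50 bp holds at other distances. Windows around the hairpin, also chosen after seeing the data, gave 54. Of 36 named genes with a summit, 6 had none with 500 bp upstream, 5 had a stronger one with 2000 bp, and 5 named genes gained one. No paired analysis was possible because there is 1 group. The unknown depth limits what an absent peak shows.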
